A study of Mus musculus with 15 samples.

Results

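The genes described here are 9 mouse genes of myoblast adhesion and fusion, namely Cdh15, Cdh2, Cdh11, Cdh4, Ncam1, Itga7, Mymk, Megf10 and Vcam1. The rule that chose them gives their names and uses no measured value, but the genes were chosen with earlier results of these data known. A H3K27ac peak was counted for a gene when it overlapped the RefSeq span of that gene or the 50 kb on either side. Of the 122375 peaks in the list, 88 met this rule. Peaks within 2 kb of any RefSeq start site of the gene were called promoter peaks (3), the other peaks inside the gene were called gene body peaks (43), and the rest were called flank peaks (42).

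The study describes the tumors as fusion-positive rhabdomyosarcomas (FP-RMS) of mice that express the fusion protein PAX3-FOXO1 (P3F). MCP tumors carried Myf6-Cre with R26-tdTom, Pax(3P3F/P3F) and Cdkn2a(Flox/Flox), so that Cre made from the Myf6 locus in the muscle lineage removed Cdkn2a, turned on P3F and marked the cells with tdTomato. TCP tumors carried the same alleles with Tek-Cre, which acts in endothelial cells and, as the paper reports, also in hematopoietic cells. The series holds 15 CUT&RUN libraries, with 6 of MCP H3K27ac, 3 of TCP H3K27ac, 3 of MCP IgG and 3 of TCP IgG, made from dissociated tumors that were sorted on a live/dead dye. A single peak list was analyzed, that of the library titled MCP H3K27ac replicate 5, which its description numbers 1, and it is the only library behind every value below. There are therefore no replicates, no difference between the models or between tumors was tested, and counting intervals are the only errors given. The labels give neither the age of the mice nor the number of animals behind the library.

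CUT&RUN cuts DNA beside a bound antibody, and H3K27ac is a histone mark found at active promoters and enhancers. Skeletal muscle fibers form when myoblasts recognize each other, adhere and fuse. Cadherins bind the same cadherin on the neighboring cell and hold the cytoskeletons together through catenins, immunoglobulin family receptors such as Ncam1 and Vcam1 add adhesion, the integrin that contains Itga7 ties the muscle cell to laminin, and Mymk is the membrane protein that acts in the merging of the membranes. A H3K27ac peak near a gene is neither a measure of its RNA nor proof that the marked sequence acts on it.

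The 6 sequences below are shown because the results turn on them. The first 4 are the 121 bases centered on the summit of the strongest upstream peak of Ncam1 (chr9:49827942-49828062) and of Itga7 (chr10:128922334-128922454) and of a strongest intronic peak of Cdh4, which has 2 of equal fold (chr2:179648811-179648931) and of Vcam1 (chr3:116113662-116113782). The last 2 are the 200 bases before the start site of Mymk (chr2:27072162-27072361) and of Cdh15 (chr8:122848174-122848373), muscle genes at whose start sites no peak was listed. All are from GRCm38 (mm10) as given by RefSeq, 5′ to 3′ on the strand of the named gene, which is the minus strand for Ncam1, Vcam1 and Mymk. Capitals mark a match to a searched motif on either strand, which in the sequences shown is the E-box CAGCTG or the RUNX motif TGTGGT, the latter read as ACCACA on the opposite strand.
Ncam1 upstream peak: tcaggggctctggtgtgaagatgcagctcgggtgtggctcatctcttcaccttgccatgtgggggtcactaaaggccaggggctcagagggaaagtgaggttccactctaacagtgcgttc
Itga7 upstream peak: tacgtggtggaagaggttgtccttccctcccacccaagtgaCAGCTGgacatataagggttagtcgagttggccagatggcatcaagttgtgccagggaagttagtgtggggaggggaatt
Cdh4 intronic peak: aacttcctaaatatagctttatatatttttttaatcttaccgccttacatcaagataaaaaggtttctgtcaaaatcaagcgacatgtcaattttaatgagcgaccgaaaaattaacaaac
Vcam1 intronic peak: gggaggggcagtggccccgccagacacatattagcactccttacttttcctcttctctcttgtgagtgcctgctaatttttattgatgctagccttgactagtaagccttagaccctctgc
Mymk upstream of the start site: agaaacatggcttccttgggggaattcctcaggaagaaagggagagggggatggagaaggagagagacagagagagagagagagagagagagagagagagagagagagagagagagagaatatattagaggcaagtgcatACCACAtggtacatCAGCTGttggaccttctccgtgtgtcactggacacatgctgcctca
Cdh15 upstream of the start site: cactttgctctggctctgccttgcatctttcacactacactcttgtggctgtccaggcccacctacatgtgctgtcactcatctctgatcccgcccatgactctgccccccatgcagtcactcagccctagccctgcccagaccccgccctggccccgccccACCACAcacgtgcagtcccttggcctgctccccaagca

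Of the 88 H3K27ac peaks of the adhesion and fusion genes, 3 were promoter peaks. The same split was not computed over all genes, and a window with 50 kb flanks is mostly sequence outside promoters. Ncam1 was the only one of the 9 members with a promoter peak, whereas 45.6% of all 21774 protein-coding genes had one. This count rests on RefSeq start sites. With GENCODE start sites, an alternative chosen after seeing the data, Megf10 and Vcam1 had a promoter peak each and the count of members was 3. By those start sites Ncam1 had 1 promoter peak in place of 3. With the strongest 25% of peaks the count of members was 0. The share of all genes was not computed for either alternative, so neither count can be set beside 45.6%. A peak inside the gene was present at 4 members (Cdh4, Ncam1, Megf10 and Vcam1), against 49.5% of all protein-coding genes. Cdh4, Megf10 and Vcam1 had gene body peaks and no promoter peak, an arrangement found in 7.03% of all genes by RefSeq start sites, and with GENCODE start sites only Cdh4 of these kept it. Any peak in the gene or its flanks was present at 6 members, against 76.3% of all genes, and Cdh2, Cdh11 and Mymk had none. These are counts over 9 genes of 1 library and no test was made of them.

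The number of peaks per window ran from 26 at Ncam1 through 21 at Megf10, 17 at Itga7, 9 at Vcam1, 8 at Cdh4 and 7 at Cdh15 to 0 at the remaining members. The median over the members was 8 peaks, and the median over all protein-coding genes was 7 (quartiles 1 and 16). Corrected for the length of the window, Itga7 was the densest at 13.6 peaks per 100 kb, and 78.5% of genes had a lower density. Megf10 (7.94), Vcam1 (7.52), Ncam1 (6.54) and Cdh15 (5.88) lay close to the median of all genes, which was 5.36 peaks per 100 kb. Cdh4 had 1.44 peaks per 100 kb. The plot of peaks along each gene and the plot of peak density show this spread, from no peak at all to a density in the upper part of the range of all genes.

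**Figure D1:**
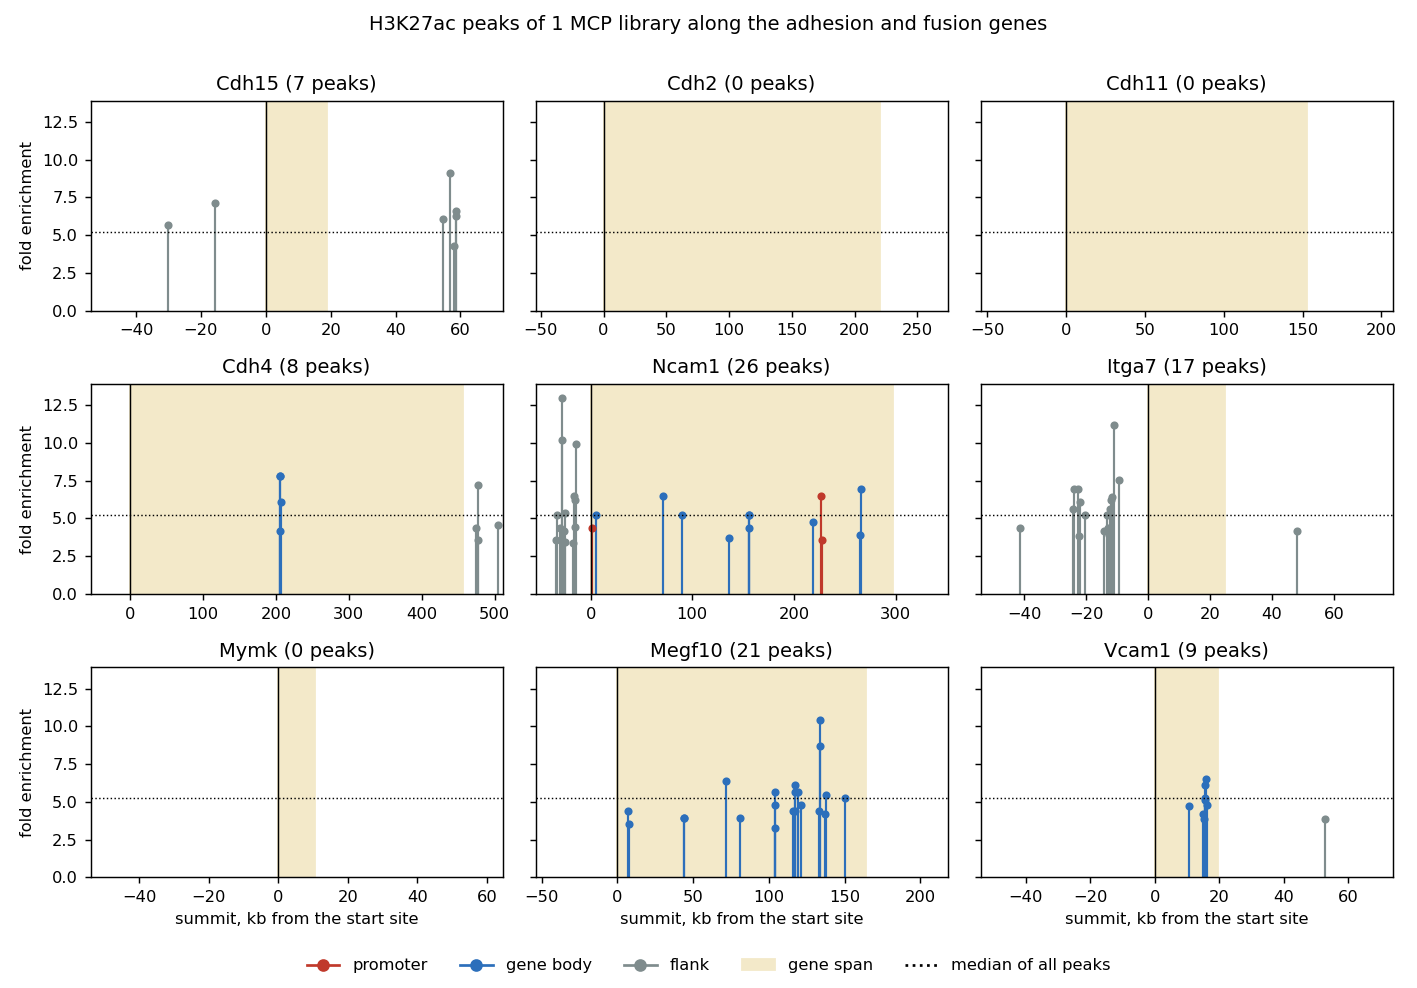
H3K27ac peaks of the MCP library at the 9 members. Each stem is a peak, placed by its summit in kb from the start site in the direction of transcription. Its height is the fold enrichment over the caller's background (shaded, gene span, and dotted line, median of all 122375 peaks, 5.22). The 3 panels without stems are Cdh2, Cdh11 and Mymk, and the tallest stems lie upstream of Ncam1 (13.0) and Itga7 (11.2) and inside Megf10 (10.4).

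**Figure D2:**
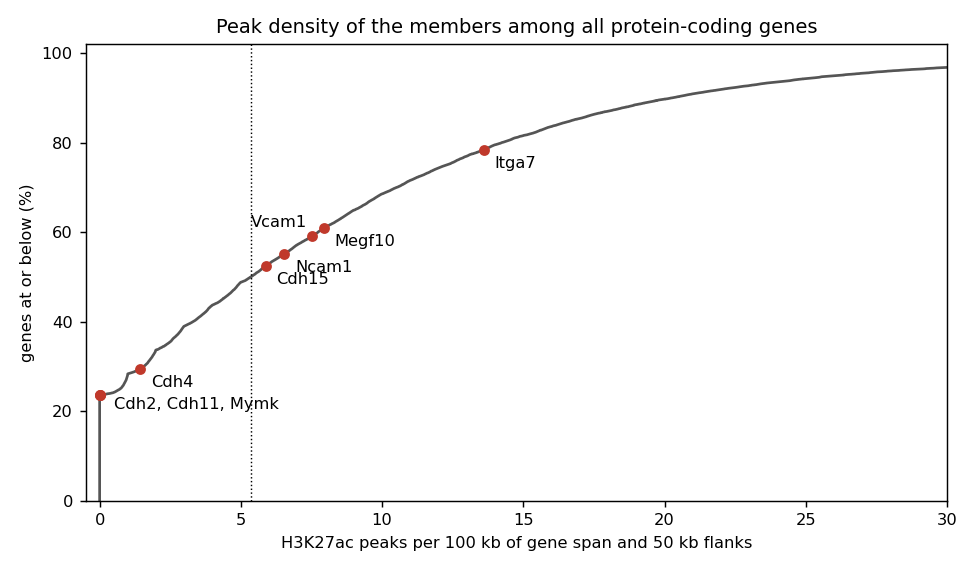
Cumulative share of all 21774 protein-coding genes (y axis, %) by the number of peaks per 100 kb of the gene and its 50 kb flanks (x axis, shown up to 30), with the 9 members as points and the median as a dotted line. Cdh2, Cdh11, Mymk and Cdh4 lie below the median of 5.36 and Itga7 is the highest member at 13.6.

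Peaks at the members were of ordinary strength for this library. Their median fold enrichment, signal at the summit over the caller's background, was 5.22 (range 3.28 to 13.0). The median of all peaks was also 5.22 (quartiles 4.36 and 6.51). At 53 of the 88 peaks, and at 47.0% of all peaks, the background was the lowest in the list. There the fold follows the fragment count alone and does not reflect IgG at that place. The median peak of the members had 12 fragments at its summit and the median of all peaks had 13, where counting alone gives an error of 27.7%. Only 7 of the 88 peaks (7.95%) exceeded 8.24, the fold enrichment that 10% of all peaks exceed. Those 7 were at Ncam1 (3), Megf10 (2), Itga7 (1) and Cdh15 (1). The summit had fewer than 20 fragments at 77 of the 88 peaks, and this share was not computed for all peaks. The flank peaks had a median fold of 5.52, the gene body peaks 5.13 and the promoter peaks 4.36.

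Cdh15, the M-cadherin of satellite cells and fusing myoblasts, is a short gene (chr8:122848374-122867397, plus strand) with no peak inside it. Its 7 peaks were all in the flanks. Upstream, 1 peak lay 15.7 kb before the start site in an intron of the noncoding gene Gm35466, with a fold enrichment of 7.11 (23 fragments, 95% interval 14.6 to 34.5), and 1 lay 30.3 kb before it, at 5.65 (12 fragments, 6.20 to 21.0). The other 5 began 54.6 kb past the start site, in exons of the noncoding gene Gm39273. These downstream peaks included the strongest of the locus, chr8:122904956-122906000, with a fold enrichment of 9.10 (20 fragments, 12.2 to 30.9) and a width of 1045 bp, wider than 95.7% of all peaks. For all 5 the nearest start site was that of Ankrd11, a chromatin regulator, and not that of Cdh15. Cdh15 lay alone in a peak-free stretch of 70.2 kb, with marked sequence on either side.

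Cdh2 (N-cadherin) and Cdh11 (OB-cadherin) are broadly used mesenchymal cadherins that myoblasts also express. No peak was listed in Cdh2 (chr18:16588877-16809246, minus strand) or Cdh11 (chr8:102632095-102785493, minus strand), nor within 1 Mb of either. The peak-free stretch around Cdh2 measured 4.89 Mb (chr18:15064543-19958888) and that around Cdh11 measured 5.02 Mb (chr8:99006755-104022625). They ranked 10 and 9 by length among the stretches between neighboring peaks of the whole list, and only 15 such stretches reached 4 Mb. Of the 21774 protein-coding genes, 236 lay in those 15, and 2501 lay in stretches of at least 1 Mb. Besides the members they held few protein-coding genes, which were Aqp4 and Chst9 beside Cdh2 and Cdh8 beside Cdh11. The peaks that bound each stretch bear consecutive numbers in the list and the stretches contain no unknown bases in the assembly. At 7 fragments for the weakest peak of the list, a weaker mark would not have been listed.

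Cdh4 (R-cadherin) spans 457 kb (chr2:179442423-179899377, plus strand). Its only gene body peaks were 4 that lay together in 1.15 kb of intron 2 (chr2:179648209-179649356), 206 kb from the start site. In order along the chromosome, their fold enrichments were 7.80, 4.17, 7.80 and 6.08, with 17, 13, 17 and 13 fragments. The interval for 17 fragments is 9.90 to 27.2, so these 4 peaks cannot be ranked against each other. The sequence under the third of them, printed above, is 28.9% G and C. Before this group the chromosome was free of peaks for 1.62 Mb, a stretch that includes 3 of the 4 annotated start sites of Cdh4. The 4 flank peaks (highest 7.24, 16 fragments) lay past the end of the gene in introns of Taf4, which encodes a subunit of the general transcription factor TFIID.

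Cadherins act through catenins and the plaque proteins that bind them. All 5 such genes examined (Ctnna1, Ctnnb1, Ctnnd1, Jup and Pkp2) had a promoter peak, led by Ctnnd1 at 13.0, Ctnna1 at 9.53 and Ctnnb1 at 8.04. None of the 4 cadherins had one, and 45.6% of all protein-coding genes did. These counts were not matched for CpG content and no test was made of them.

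Ncam1 (CD56) is a surface glycoprotein of myoblasts and regenerating fibers, and it is used as a marker of rhabdomyosarcoma. It held 26 peaks (chr9:49502129-49799393, minus strand), the most of the members. The 13 upstream peaks lay in intergenic sequence 14.4 to 33.9 kb before the start site and formed 2 groups, at 14.4 to 17.1 kb and 25.1 to 33.9 kb. The strongest was chr9:49827851-49829108, 28.6 kb upstream, with a fold enrichment of 13.0 (43 fragments, 31.1 to 57.9) and a width of 1258 bp. Only 1.06% of all peaks had a higher fold. Its neighbor 28.0 kb upstream reached 10.2 (24 fragments, 15.4 to 35.7), and a peak 14.4 kb upstream reached 9.96 (22 fragments, 13.8 to 33.3), while the other 10 lay between 3.35 and 6.51. The intervals of the 2 strongest peaks overlapped. An annotated small nuclear RNA, Gm25633, lies inside the farther group, and 5 of its peaks were within 2 kb of that start site. No other annotated start site was closer to any of the 13.

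The promoter peaks of Ncam1, with folds of 3.58 to 6.51, lay in the range of the 10 weaker upstream peaks. The main start site had 1 promoter peak, chr9:49797615-49797906, with its summit 1.60 kb inside the gene, a fold enrichment of 4.36 and 9 fragments (4.12 to 17.1). The other 2 lay beside internal start sites of predicted transcripts at 49570843 and 49570845, 227 kb into the gene. The stronger of these, chr9:49572014-49572845, had a fold enrichment of 6.51 (14 fragments, 7.65 to 23.5) and the weaker one 3.58 (11 fragments). All 3 were below 7.37, the median of the best promoter peak over all genes with one. By GENCODE start sites Ncam1 had 1 promoter peak in place of 3. The 10 gene body peaks had folds of 3.73 to 6.94, and 8 of them were in intron 1. The strongest, chr9:49533330-49533703, lay in intron 13 and in an intron of the noncoding gene Gm11149 on the opposite strand (15 fragments, 8.40 to 24.7).

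Vcam1 is a receptor for the integrin that contains Itga4, and this pair acts in contacts between myoblasts and between leukocytes and vessel walls. It had no promoter peak by its RefSeq start site and no upstream peak, but it was the densest member inside the gene (chr3:116110020-116129688, minus strand). Its 8 gene body peaks gave 40.7 peaks per 100 kb of gene. A lower density was found in 91.7% of genes, which includes the 50.5% with no peak inside the gene. Of these, 7 lay within 1.51 kb (chr3:116113404-116114913) of introns 7 and 8, around the exon between them. Only 0.602% of all peaks belonged to a stretch with at least 7 summits in 2 kb. The peaks were narrow (79 to 155 bp) and of moderate fold, between 3.85 and 6.51, with 10 to 14 fragments each. The strongest, chr3:116113666-116113753, measured 88 bp and lay 16.0 kb from the start site (14 fragments, 7.65 to 23.5). Of the 9 peaks in the window of Vcam1, 2 had a -log10 q of at least 5 and 0 were among the strongest 25% of the list. The density inside the gene and the packing were not recomputed with those cuts. No peak was listed in the window of Itga4. The single flank peak, at 3.85, lay 52.7 kb past the start site.

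The other receptors of the immunoglobulin family and their partners were divided. Of 11 genes, 4 had a promoter peak (45.6% of all protein-coding genes did). The highest folds were at Cdon (10.4), Kirrel (7.80) and Neo1 (6.66). Cdon and Neo1 belong to a receptor complex that promotes muscle differentiation, and Kirrel resembles the recognition receptors of insect myoblasts.

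Itga7 (chr10:128933421-128958286, plus strand), the laminin-binding integrin chain of muscle, had 17 peaks in its window and none inside the gene. Upstream lay 16 of them, and 15 of the 17 were within 2 kb of the start site of another gene. These were Cd63, a lysosomal tetraspanin, Rdh5, a retinol dehydrogenase, Bloc1s1, a subunit of an organelle trafficking complex, and Gdf11, a secreted growth factor. The strongest, chr10:128922115-128923018, lay 11.0 kb before Itga7 in a Bloc1s1 intron, with its summit 1.13 kb from the Bloc1s1 start site. By the 2 kb rule it is a promoter peak of Bloc1s1. Its fold enrichment was 11.2 (25 fragments, 16.2 to 36.9), which 2.34% of all peaks exceeded. The closest to Itga7 had its summit 9.43 kb before the start site and a fold enrichment of 7.53 (18 fragments, 10.7 to 28.4). It lay 0.468 kb from the start of Bloc1s1. From there a stretch of 57.0 kb with Itga7 and Mettl7b inside it was free of peaks. For none of the 17 was Itga7 the gene with the nearest start site.

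Among the 15 other integrins, laminins and basal lamina receptors examined, 9 had a promoter peak (45.6% of all protein-coding genes did). The highest folds were at Itga3 (10.8), Lamc1 (9.20) and Itgb1 (9.10), the last of which is the partner chain of Itga7.

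Megf10, a receptor with EGF repeats that keeps satellite cells dividing and is mutated in an early-onset myopathy, carried its peaks inside the gene, where Itga7 had none. All 21 of its peaks were inside the gene (chr18:57133090-57297467, plus strand) and all were intronic. They lay from 7.06 to 150 kb past the start site, and neither flank nor the RefSeq promoter held any. Their density was 12.8 peaks per 100 kb of gene, higher than in 73.5% of genes, which includes the 50.5% with no peak inside the gene. In the second part of the gene 15 of them joined into 1 group of 46.6 kb, spread over introns 5, 8, 9, 13 and 17. The strongest, chr18:57267453-57267739 in intron 13, had a fold enrichment of 10.4 (23 fragments, 14.6 to 34.5), and its neighbor reached 8.67 (19 fragments, 11.4 to 29.7). The other 19 lay between 3.28 and 6.40. The 32 bases at the summit of the strongest peak occur 2 times in the assembly, whereas those of the other 9 strongest peaks by class (flank, gene body or promoter) occurred once. For 12 peaks toward the end of the gene the nearest annotated start site was that of the small nucleolar RNA LOC115488949, which lies beyond the gene.

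**Figure D3:**
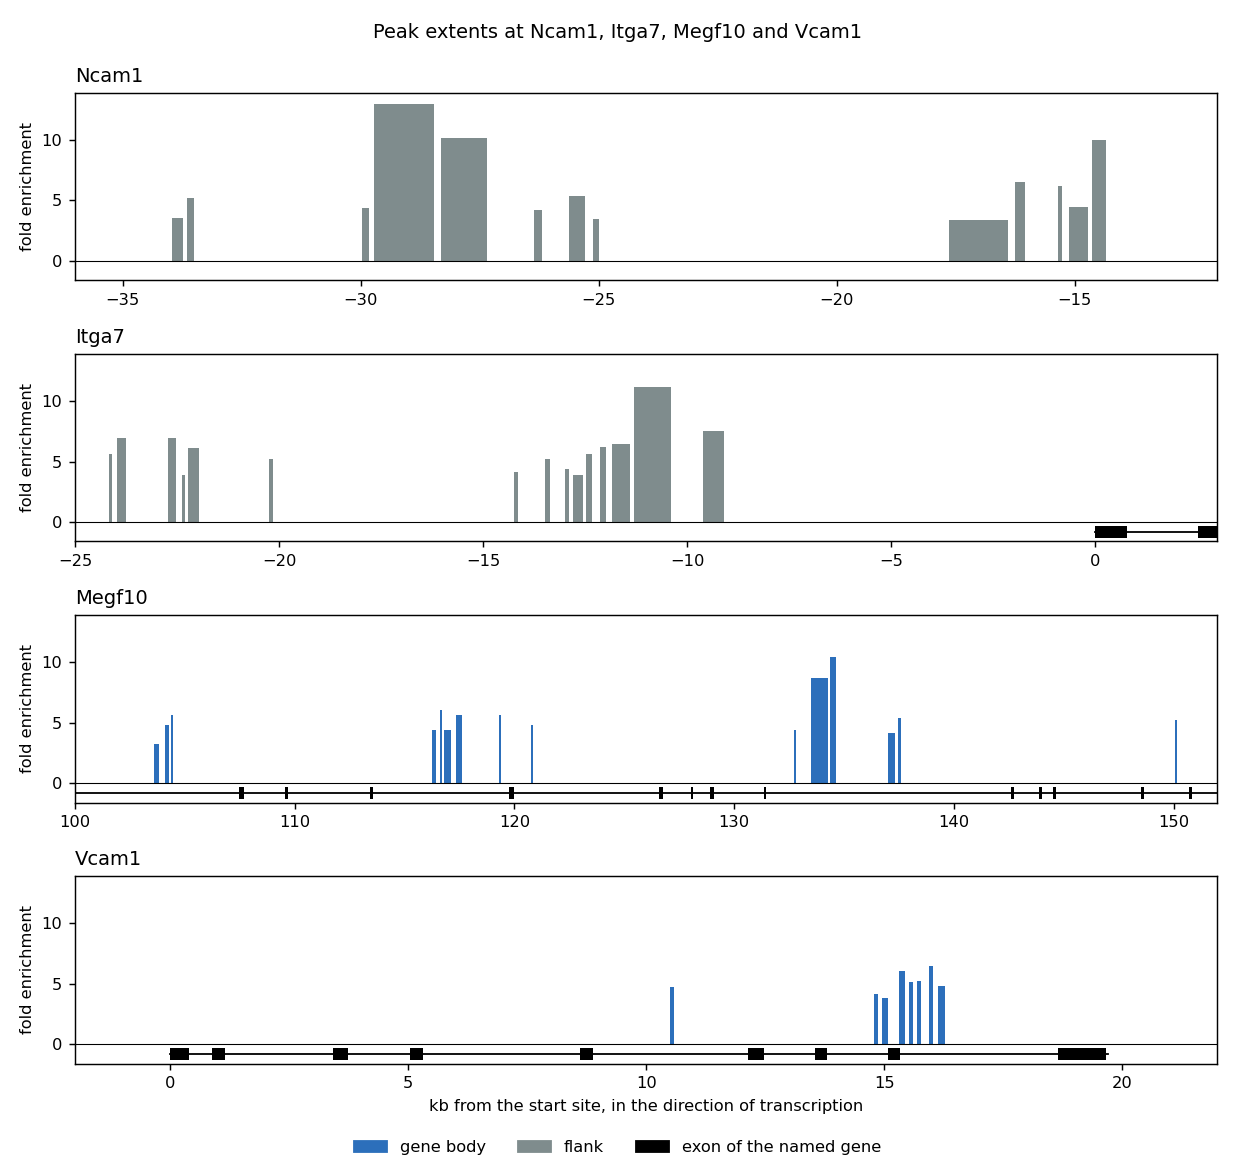
Extent (x axis, kb from the start site in the direction of transcription) and fold enrichment (y axis) of peaks upstream of Ncam1, upstream of Itga7, in the later part of Megf10 and across Vcam1. Black boxes are exons of the named gene. The strongest Ncam1 peak is a block of 1258 bp at 28.6 kb upstream, and 7 narrow Vcam1 peaks stand on both sides of an exon.

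Mymk (myomaker) is the muscle-specific membrane protein needed for fusion. No peak was listed in Mymk (chr2:27061636-27072161, minus strand) or in its flanks. The nearest summit was 61.6 kb from the main start site. Mymk lay in a peak-free stretch of 173 kb together with Slc2a6, Adamtsl2, Fam163b and Dbh. The 5 Mb around it held 57.1 peaks per Mb outside its own window, and chromosome 2 held 51.9. The stretch ranked 2583 by length, whereas those around Cdh2 and Cdh11 were among the 10 longest of the list.

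Mymx, the small protein that acts with Mymk in fusion, had no promoter peak either, and its nearest summit was 14.0 kb away, though its window held 12 peaks. Of the other 8 genes of the fusion group, 4 had a promoter peak. These were Dysf (12.7) and Myof (7.80), the ferlins of membrane repair and fusion, and the tetraspanins Cd9 (10.7) and Cd53 (6.51). None was listed at Cav3, Stab2, Cd81 or Tspan32. Myof and Cd9 had 86 and 85 peaks in their windows, more than any of the 9 members. Of 21 receptors and switches that lead to the actin cytoskeleton, 17 had a promoter peak, led by Nckap1 (15.1), Rac1 (13.4) and Wasl (10.7). Over all 61 other genes of the pathway, 39 (63.9%) had a promoter peak, beside 45.6% of all protein-coding genes. The pathway share rests on lists drawn up with earlier results of this library known.

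**Figure D4:**
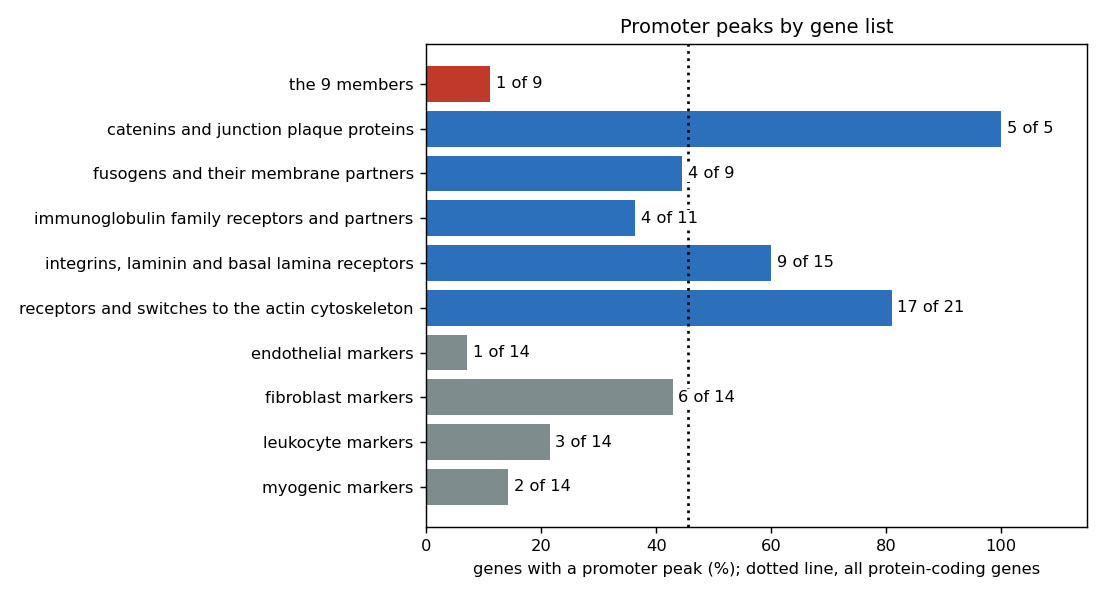
Share of genes with a promoter peak (x axis, %) in the 9 members, in the other genes of the pathway by group and in 4 marker lists of 14 genes each, with the count beside each bar and the share of all protein-coding genes (45.6%) as a dotted line. The members (1 of 9) stand beside all 5 catenins and plaque proteins and 17 of 21 actin genes.

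Markers of the labelled lineage were examined in the same way. Of 14 myogenic markers, 10 had a peak in the gene or its flanks (76.3% of all genes did) and 2 had a promoter peak (45.6% of all genes did), and these were Myf6 and Pax3, the loci that carry the Cre and P3F alleles. A promoter peak was absent at Myod1, Myog, Myf5, Pax7 and Des. The study reports that MYOD1 and MYOGENIN staining was focal in MCP tumors and diffuse in TCP tumors. Whether this bears on the present library was not tested. The count of promoter peaks was 1 of 14 for endothelial markers (Cd34), 3 of 14 for leukocyte markers (Cd68, Cd14 and Fcer1g) and 6 of 14 for fibroblast markers (among them Pdgfra, Col3a1 and Postn). Vcam1 and Cdh11 are also used outside muscle, in vessels and connective tissue. Whether cells other than tumor cells contributed to the peaks at the members was not tested. In bulk nuclei, fewer cells with a mark and less mark per cell cannot be told apart.

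Genes with a start site rich in CpG had a promoter peak more often across the genome, so the members were placed among genes of like CpG count. Genes were divided into 10 strata by the highest CpG count within 500 bp of any of their start sites. The promoter peak could lie at another start site of the gene, and the number of start sites was not matched. A promoter peak was found at 3.08% of genes in the lowest stratum and 73.9% in the highest. Mymk (9 CpG), Vcam1 (12) and Cdh15 (22) fell in strata where 7.44%, 14.8% and 28.7% of genes had one. Cdh2 (109) and Cdh4 (105) were in the highest stratum, and Cdh11 (67), Megf10 (51) and Itga7 (49) were in strata where 69.7%, 65.0% and 65.0% did. By RefSeq start sites the 5 members with the most CpG had no promoter peak, and Ncam1 (39 CpG, stratum share 52.1%) did, whereas by GENCODE start sites Megf10 had one too.

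**Figure D5:**
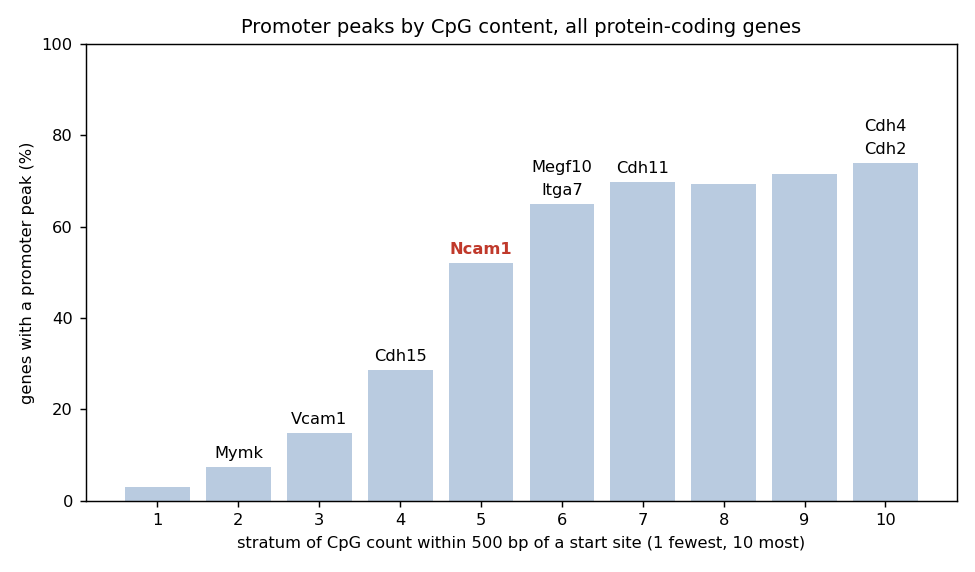
Share of protein-coding genes with a promoter peak (y axis, %) in 10 strata of CpG count (x axis). The count is the highest within 500 bp of any start site of the gene. Members are written above their stratum, and Ncam1, the only one with a promoter peak by RefSeq start sites, is in bold. The share rises from 3.08% to 73.9%, and Cdh2 and Cdh4 stand above the highest bar.

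Sequence under the peaks resembled that of the whole list. Short motifs were counted on both strands within 100 bp of each summit, which is a description of the letters and not of binding. The E-box CAGCTG, of the kind that MyoD-family factors bind, lay at 14.8% of the member peaks (13 of 88) and at 10.0% of all peaks, while the E-box CAGGTG lay at 6.82% and 12.4%. Either E-box was present at 20.5% and 21.0%. The RUNX motif TGTGGT was found at 15 of the 88 member peaks and 15.9% of all peaks, the TEAD motif GGAATG at 11.4% in both, the AP-1 motif TGANTCA at 9.09% and 8.05%, and the forkhead motif TGTTTAC at 3.41% and 3.27%. The homeodomain motif TAATTA stood at 9.09% and 5.62%, and the PAX paired domain core GTCACG at 4.55% and 2.58%, or 4 peaks, of which 3 were at Megf10 and 1 at Ncam1. The MEF2 motif CTATTTATA was at 0 of 88 and at 0.234% of all peaks. In windows of the same length around the start sites of all protein-coding genes, the E-box CAGCTG was present at 11.8%, CAGGTG at 13.8%, GTCACG at 7.06%, TAATTA at 2.32%, TGTTTAC at 1.69%, TGANTCA at 4.19%, GGAATG at 8.36%, TGTGGT at 10.5% and CTATTTATA at 0.253%.

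Among the sequences printed above, the Itga7 upstream peak contained CAGCTG beside its summit, and the 121 bases printed for the Ncam1, Cdh4 and Vcam1 peaks held none of the motifs. In the wider window of 100 bp on either side of the summit, the printed Cdh4 peak had TAATTA, and the other Cdh4 peak of equal fold had CAGCTG. The 200 bases before the Mymk start site held CAGCTG and TGTGGT although no peak was listed there, and those before Cdh15 held TGTGGT. The median member peak was 6.06% repeat sequence, against 11.0% for all peaks, and 7 of the 88 were more than 50% repeat. None of the 88 shared a run of 20 bases with the mitochondrial genome.

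Peaks away from start sites were also joined across short gaps, with the distance the study used, and ranked by the sum of the caller's scores, which follow -log10 q. The study ranked joined regions with a dedicated tool, so this ranking is not its measure. This gave 20524 groups, of which 963 lay above the point where the ranked scores turn upward. In the windows of the members lay 22 groups and none was above that point. The highest were the upstream group of Ncam1 (12 peaks over 19.6 kb, rank 1205), the intronic group of Megf10 (15 peaks, rank 1676), the group downstream of Cdh15 that runs on past its window (14 peaks over 40.5 kb, rank 1887) and that upstream of Itga7 (8 peaks over 12.3 kb, rank 2208). The groups of Vcam1 (8 peaks over 5.79 kb, rank 4864) and Cdh4 (4 peaks, rank 5511) followed.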

How the data were processed

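H3K27ac was profiled by CUT&RUN in MCP and TCP tumors, and the peak list of MCP H3K27ac replicate 5, assigned by the library number in its peak names and label, was analyzed. The authors mapped read pairs to mm10, discarded problematic regions and called peaks with IgG as control. Their methods name bowtie and an early MACS release, whereas the submitters' processing notes name BWA, SAMtools and MACS2, so it is uncertain which settings made the list. For every peak the deposited columns hold a score, a fold enrichment (a ratio to the caller's background) and the -log10 p and -log10 q of the summit. All are from the authors' caller. Peaks under its threshold are not in the list, and 584 of the 122959 peak numbers are absent.

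The list states no depth. Fragments at the summit were solved from fold and p, which gave whole numbers for 100% of peaks within 0.1% of -log10 p (one solution for 98.1%) at a scale of 0.885, with a median of 13. Exact Poisson 95% intervals cover counting error only, and the list cannot tell copies of one molecule apart. This step and the motif search were tested on simulated data.

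Genes and start sites were from RefSeq for GRCm38 (21774 protein-coding genes on chromosomes 1 to 19, X and Y), with curated and predicted transcripts. Promoters were 2 kb either side of a start site, as in the study. Values are descriptions beside all genes or all peaks. The members, the pathway and marker lists and the motifs were chosen with earlier results of these data known. Named were all 9 members, all genes of the fusion group, the genes with the 3 highest promoter peaks in the other groups, and the strongest peak of each class at a member. Other peaks and neighboring genes given were chosen after their values were seen. Python 3.11.15 was used with pandas 2.3.3, numpy 2.4.6 and scipy 1.17.1.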

Additional observations from a re-analysis of the deposited data

How the results depend on the processing

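No paired analysis was possible because a single library was analyzed and no result comes from a test. Of 24 alternative values, 18 stayed within 1.5 times the reported value. With only peaks at -log10 q of at least 5, the 88 peaks became 39 and the 22 stitched groups became 14. With the strongest 25% of peaks, 20 peaks and 0 members with a promoter peak were left. A flank of 10 kb gave 47 peaks. With GENCODE start sites, an alternative chosen after seeing the data, 3 members had a promoter peak (Ncam1, Megf10 and Vcam1), because GENCODE gives Megf10 and Vcam1 more start sites than RefSeq. The median fold ranged from 5.13 to 7.39 and the pathway genes with a promoter peak from 28 to 40, members included. Keeping only stronger peaks raises the median fold by construction. The median of all peaks was not recomputed with those cuts, so these 2 alternatives do not check the likeness to all peaks. No alternative was run for the motifs. Depth limits the ranking of single peaks, since the median of 13 fragments carries an error of 27.7%, and the absence of a peak does not show the absence of the mark.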
